A study of Mus musculus with 2 samples.

Results

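Semaphorins, plexins and neuropilins were compared between 2 RNA-seq libraries made from cells of mouse breast tumours. The genes were taken by symbol from the deposited tables, which gave 31 of 22558 genes, namely 20 semaphorins, 9 plexins and 2 neuropilins. The TIC library was made from tumour-initiating cells and the NTC library from non-tumorigenic cells. Both came from tumours of the FVB strain, which were dissociated and sorted at once by flow cytometry, with no treatment. Not given in the sources used here are the tumour model, the age of the mice, the sort markers and the number of tumours pooled. With 1 library per group there is no replicate, so no difference below has a test, an SD or a p-value, and each is a difference between these 2 libraries.

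Semaphorins are guidance proteins, first known for steering growing axons and later for acting on the movement, adhesion and survival of epithelial, vascular and immune cells. Class 3 semaphorins are secreted, classes 4 to 6 span the membrane, and class 7 is held to it by a lipid anchor. Plexins are their main receptors and act on small GTPases inside the cell. Most class 3 semaphorins reach plexins through a neuropilin, a co-receptor that also binds vascular endothelial growth factors. In the mammary gland the basal, contractile layer and the luminal, milk-producing layer lie side by side, so a ligand on one layer can meet a receptor on the other.

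Most semaphorins that the libraries held at more than trace levels were higher in TIC, as were both neuropilins, while the summed plexin level differed less. The levels of the 20 semaphorins summed to 655 FPKM in TIC and 85.9 FPKM in NTC, a ratio of 7.63. FPKM are fragments scaled to transcript length and to the mapped fragments of a library, so levels can be compared between genes. The 9 plexins summed to 141 FPKM in TIC and 115 FPKM in NTC, a ratio of 1.23. The neuropilins summed to 29.3 FPKM in TIC and 0.695 FPKM in NTC, a ratio of 42.1. Over all genes the sums were 332935 and 376464 FPKM, a ratio of 0.884.

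Of the 31 genes, 23 had the higher level in TIC, 7 in NTC, and 1 was listed at 0 in both. Over all 22558 genes, 7226 were higher in TIC and 9174 in NTC. Genes whose mean over both libraries reached 1 FPKM are called measured, and 21 of the 31 were. The log2 ratio of TIC to NTC was taken after adding 1 FPKM to each level, which understates the difference of low genes, and a log2 ratio of 1 or more either way is called 2-fold. A 2-fold higher level in TIC was reached by 16 of the 21, and by 14.6% of the 12004 measured genes. A 2-fold lower level was reached by 1 of the 21, Sema4d, and by 13.8% of measured genes. The median log2 ratio was 1.67 over the 21 and -0.16 over all measured genes.

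The limit of a mean of 1 FPKM itself shapes such a count. In 5 of the 21 (Nrp1, Plxna2, Plxnd1, Sema6c and Sema7a) the lower library was at or below 0.333 FPKM, and any gene that low in one library and measured had to be at least 2-fold different. Among the 13 members with at least 1 FPKM in both libraries, 8 were higher in TIC by 2-fold or more and 1 was lower by as much. The shares over the 10466 genes with that level in both were 8.84% and 11.1%. The smallest mean among measured members was 1.11 FPKM (Plxnd1), and the largest among the others was 0.628 FPKM (Sema3e).

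**Figure D1:**
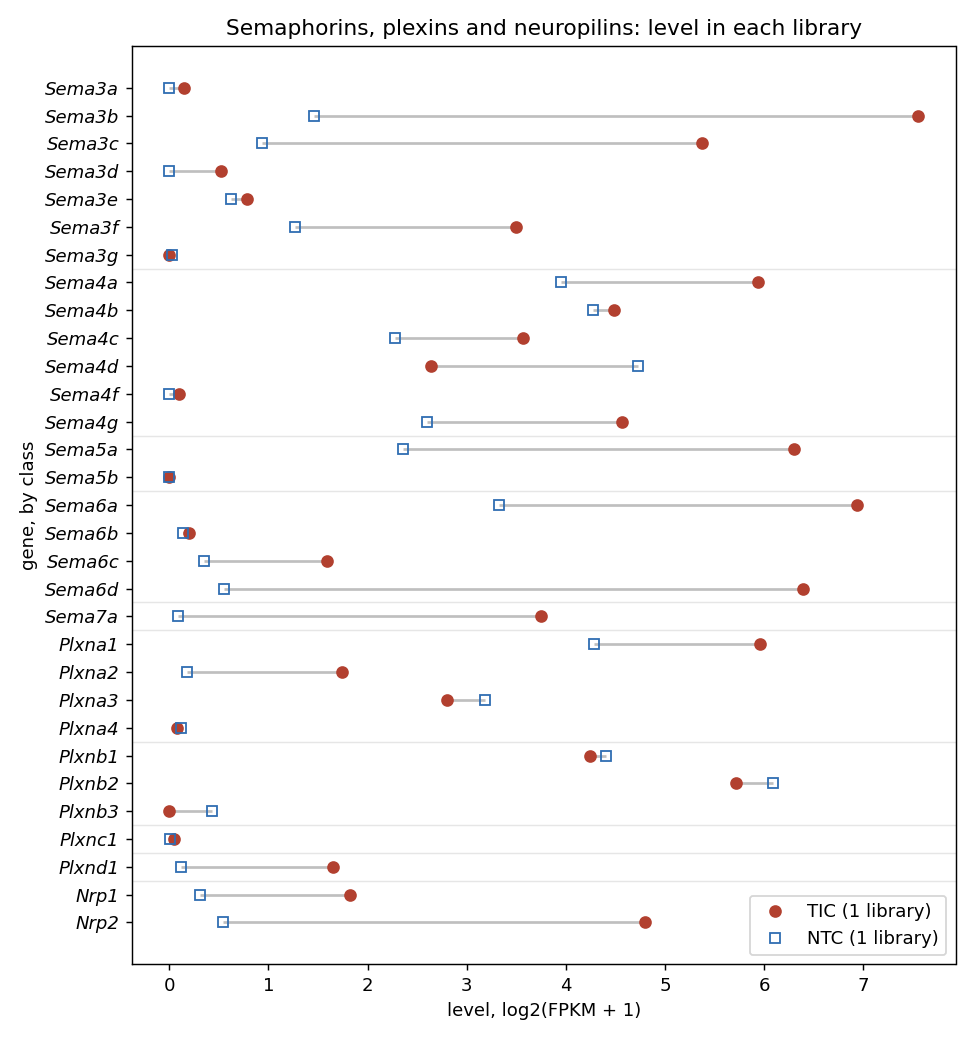
Level of each of the 31 genes on a log2(FPKM + 1) axis, grouped by class, with a filled circle for the TIC library and an open square for the NTC library. Sema3b, Sema6d, Sema3c and Nrp2 have the widest gaps toward TIC, and Sema4d is the wide gap toward NTC.

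Low values rest on few reads. Depth was estimated from low values in short receptor genes. Their median FPKM × kb within a fixed window was taken as 1 read. By this estimate, 1 FPKM stood for about 21.0 reads on each kb of a TIC transcript and 21.6 on each kb in NTC. The estimate is limited by that window, is rough and covers counting only. Per sorted library, more cells of a type and more RNA per cell cannot be told apart. The libraries carried different mammary lineages. All 8 basal markers (Krt5, Krt14, Acta2, Trp63, Myh11, Oxtr, Cnn1 and Mylk) were 2-fold or more higher in TIC, with a summed level of 3727 against 32.8 FPKM. All 9 luminal markers (Krt8, Krt18, Krt19, Elf5, Cldn3, Ehf, Epcam, Gata3 and Esr1) were at least 2-fold lower, with 203 against 3749 FPKM. The part of this lineage difference in the results on semaphorins was not tested.

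Among the secreted class 3 ligands, 3 of 7 were measured, and all 3 were at least 2-fold higher in TIC. Sema3b, a repellent for axons and a candidate tumour suppressor, had 187 FPKM in TIC and 1.76 FPKM in NTC, a log2 ratio of 6.09. In TIC this was the highest level of any of the 31 genes and stood above 98.9% of all genes. In NTC it stood above 53.1% of genes. Its locus is chromosome 9, 107500446 to 107511572 in build mm9, the build of all positions from the files. Sema3c, a secreted guide of neural crest and vascular cells, had 40.4 FPKM in TIC and 0.906 FPKM in NTC, a log2 ratio of 4.44 (chromosome 5, 17080634 to 17236085). Sema3f, which signals through neuropilin 2 and is another candidate tumour suppressor, had 10.3 FPKM in TIC and 1.4 FPKM in NTC, a log2 ratio of 2.24 (chromosome 9, 107583833 to 107612806). Sema3b alone held 78.2% of the class sum of 239 FPKM in TIC. The class sum in NTC was 4.62 FPKM.

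The 4 other class 3 genes were near the floor. Sema3e, known as a ligand of plexin D1 that needs no neuropilin, had 0.718 FPKM in TIC and 0.538 FPKM in NTC. Sema3a, the founding axon repellent, had 0.110 FPKM in TIC against a listed 0 in NTC. Sema3d had 0.433 FPKM in TIC against a listed 0 in NTC. Sema3g had a listed 0 in TIC against 0.0180 FPKM in NTC. A listed 0 is not read as absence. Sema3d, Sema3a, Sema3e and Sema3c lie in that order on chromosome 5, and Sema3c was the measured one. Its nearest member there, Sema3e, ends 2824 kb before it.

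The neuropilins, which class 3 ligands need to engage most plexins, were both higher in TIC. Nrp2 had 26.7 FPKM in TIC and 0.453 FPKM in NTC, a log2 ratio of 4.25 (chromosome 1, 62749891 to 62865266). Nrp1 had 2.52 FPKM in TIC and 0.243 FPKM in NTC, a log2 ratio of 1.5 (chromosome 8, 130882973 to 131029375). Nrp2 held 91.4% of the neuropilin sum in TIC and 65.1% in NTC. Sema3b, Sema3c, Sema3f and Nrp2 were thus each high in TIC and low in NTC. Nrp2 shares its listed locus with the transcript 4930487H11Rik, which had 0.312 FPKM in TIC and 0.103 FPKM in NTC. Nrp1 shares its locus with a microRNA gene, Mir1903, listed at 0 in both.

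Neuropilins are also abundant in blood vessels, so vascular markers stand beside them. The 8 endothelial markers (Pecam1, Cdh5, Tek, Tie1, Emcn, Esam, Kdr and Flt1) summed to 3.25 FPKM in TIC and 0.705 FPKM in NTC, and none was measured. The highest of them in TIC was Kdr, the main receptor of vascular endothelial growth factor, with 1.61 FPKM against a listed 0 in NTC. Pecam1 had 0.584 FPKM in TIC and 0.223 FPKM in NTC, and Cdh5 had 0.489 and 0.0146 FPKM. Emcn, Esam, Tie1 and Kdr were listed at 0 in NTC. The part of vascular cells in the neuropilin levels was not tested.

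Of the 6 transmembrane class 4 ligands, 5 were measured, each with more than 1 FPKM in both libraries, and they differed in direction. Sema4a, known for its action on T cells and the retina, had 60.2 FPKM in TIC and 14.4 FPKM in NTC, a log2 ratio of 1.99 (chromosome 3, 88239884 to 88265104). Sema4g had 22.6 FPKM in TIC and 5.07 FPKM in NTC, a log2 ratio of 1.96. Sema4c, a ligand of plexin B2, had 10.9 FPKM in TIC and 3.85 FPKM in NTC, a log2 ratio of 1.29. These 3 were higher in TIC, though none reached the ratios of Sema3b or Sema3c. Sema4b had 21.3 FPKM in TIC and 18.3 FPKM in NTC, a log2 ratio of 0.21, within 2-fold. Sema4f had 0.0679 FPKM in TIC against a listed 0 in NTC.

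Sema4d stood apart from the other measured semaphorins in its direction. Sema4d, also known as CD100, is a ligand of plexin B1 and, on lymphocytes, of CD72. It had 5.24 FPKM in TIC and 25.5 FPKM in NTC, a log2 ratio of -2.09 (chromosome 13, 51796617 to 51889013). In NTC it was the highest semaphorin, with 29.7% of the summed semaphorin level. In TIC the highest was Sema3b, with 28.5% of that sum. Sema4d is abundant in lymphocytes, so leukocyte markers stand beside it. The 8 leukocyte markers found (Ptprc, Cd3e, Cd79a, Itgam, Csf1r, Emr1, Lyz2 and Cd68) summed to 2.52 FPKM in TIC and 2.23 FPKM in NTC. The highest were Lyz2 (1.56 FPKM in TIC and 0.727 FPKM in NTC) and Cd68 (0.828 and 1.38 FPKM). Ptprc, Cd3e and Emr1 were listed at 0 in both libraries, and Cd79a was listed at 0 in NTC.

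**Figure D2:**
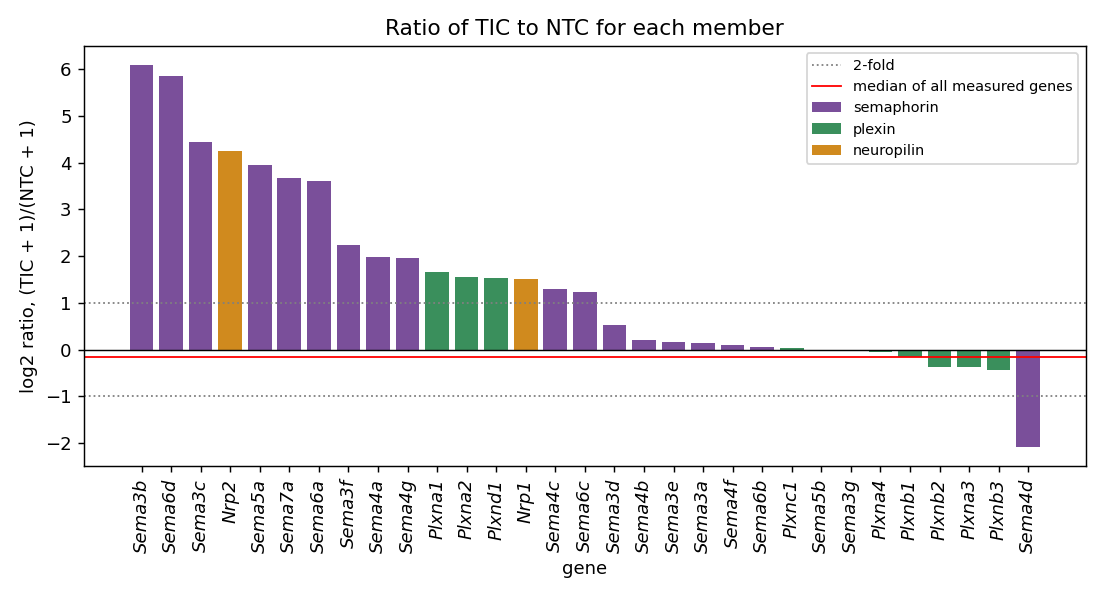
Log2 ratio of TIC to NTC for each of the 31 genes, sorted and coloured by family, with dotted lines at 2-fold and a red line at the median of all measured genes (-0.16). Bars rise above the upper dotted line for 16 genes, and Sema4d (-2.09) is the single bar below the lower one.

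Classes 5 and 6 held some of the highest levels in TIC. Sema5a, which carries thrombospondin repeats and can attract or repel, had 77.7 FPKM in TIC and 4.13 FPKM in NTC, a log2 ratio of 3.94 (chromosome 15, 32174568 to 32626096). LOC100616095, listed 151 bases from Sema5a, had 39.2 FPKM in TIC and 1.34 FPKM in NTC, a log2 ratio of 4.10. Whether the levels of these neighbours are independent was not tested. Sema5b, a relative of Sema5a, was listed at 0 in both libraries. Sema6a, a ligand of plexins A2 and A4, had 121 FPKM in TIC and 9.01 FPKM in NTC, a log2 ratio of 3.61. In TIC Sema6a came next after Sema3b and stood above 98.2% of all genes. Sema6c had 2.01 FPKM in TIC and 0.279 FPKM in NTC, a log2 ratio of 1.23. Sema6b, at 0.147 and 0.0999 FPKM, was not measured.

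Sema6d, a ligand of plexin A1 known from heart development, had 83.0 FPKM in TIC and 0.464 FPKM in NTC. Its log2 ratio of 5.84 came next after that of Sema3b, an order that turned with a pseudocount of 0.1 FPKM, where Sema6d had 7.20 and Sema3b 6.65. The files place it on chromosome 2, 124436032 to 124493506, a locus of 57.5 kb, and describe it by several gene identifiers, so its value may combine or split transcripts. RefSeq lists 2 starts for the gene that lie 564 kb apart in build GRCm38, so the listed locus is too short to hold both. The 250 bases before each start are shown because Sema6d had the largest ratio among members with a RefSeq promoter entry, and a window of Sema4d because that gene had the opposite direction. Capitals mark the letters CAGGTG, an E-box of the kind that Snail-family factors bind, or AGGAAG, a core that ETS-family factors bind, each searched on both strands (as CACCTG or CTTCCT on the other). The sequences are from RefSeq, build GRCm38.p6, written 5′ to 3′ along the gene.
Sema6d far start, chr2:124089719-124089968, plus strand: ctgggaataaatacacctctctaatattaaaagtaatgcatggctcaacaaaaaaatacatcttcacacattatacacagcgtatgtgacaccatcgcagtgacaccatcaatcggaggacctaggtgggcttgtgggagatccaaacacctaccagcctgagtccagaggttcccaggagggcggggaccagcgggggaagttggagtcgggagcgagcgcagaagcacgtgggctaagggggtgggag
Sema6d near start, chr2:124653331-124653580, plus strand: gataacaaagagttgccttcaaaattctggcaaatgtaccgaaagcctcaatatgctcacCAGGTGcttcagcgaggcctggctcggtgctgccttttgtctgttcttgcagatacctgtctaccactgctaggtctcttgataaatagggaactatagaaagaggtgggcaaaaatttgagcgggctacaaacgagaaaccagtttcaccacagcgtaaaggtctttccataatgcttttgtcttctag
Sema4d, chr13:51756684-51756933, minus strand: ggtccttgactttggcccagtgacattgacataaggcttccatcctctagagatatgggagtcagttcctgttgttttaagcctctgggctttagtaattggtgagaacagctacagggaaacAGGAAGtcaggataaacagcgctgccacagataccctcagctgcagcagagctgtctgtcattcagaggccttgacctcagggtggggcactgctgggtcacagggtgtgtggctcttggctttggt

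The window at the far start of Sema6d held neither motif, and the window at the near start held CAGGTG. Over 32851 RefSeq promoter windows of this length, 17.2% held CAGGTG and 29.5% held AGGAAG. Of the 3 Sema4d windows, the one shown held AGGAAG and the other two held neither motif. The far Sema6d window held 9 CG pairs, the near one 6 and the Sema4d window 1, against a median of 6 over all windows. A match describes these letters and not a bound site, and which start was used was not measured. Sema3b has no entry in the promoter table used here.

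Sema7a, the lipid-anchored class 7 ligand, signals through plexin C1 and through integrins with the beta-1 chain. It had 12.4 FPKM in TIC and 0.0594 FPKM in NTC, a log2 ratio of 3.66 (chromosome 9, 57787942 to 57810672). On the longest coding transcript of 3.30 kb in GENCODE, the NTC level corresponds to about 4.23 reads by the rough depth estimate. The low side of this ratio is therefore imprecise. Plxnc1, the plexin for Sema7a, was near the floor in both, with 0.0312 FPKM in TIC and 0.00761 FPKM in NTC. The other receptor was abundant, as Itgb1 had 159 FPKM in TIC and 65.8 FPKM in NTC. Itga1, a partner chain of Itgb1, had 2.68 FPKM in TIC and 0.0764 FPKM in NTC.

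**Figure D3:**
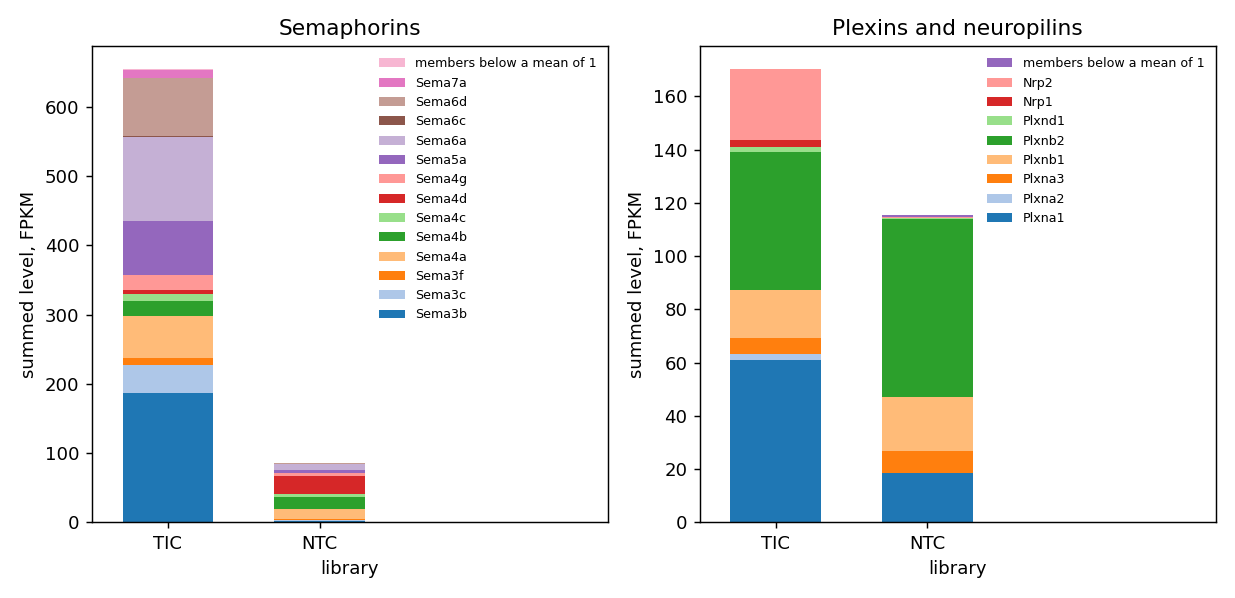
Summed FPKM of the semaphorins (left) and of the plexins and neuropilins (right) in each library, with each measured gene as a segment and the members below a mean of 1 FPKM pooled. The semaphorin bar is 655 FPKM in TIC and 85.9 FPKM in NTC, while Plxnb2 and Plxna1 make up most of the receptor bar in both libraries.

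The class A plexins, which pair with neuropilins and bind class 6 ligands directly, differed from gene to gene. Plxna1 had 61.0 FPKM in TIC and 18.5 FPKM in NTC, a log2 ratio of 1.67 (chromosome 6, 89266308 to 89312607). It held 87.9% of the class A sum in TIC and 69.1% in NTC. Plxna2 had 2.34 FPKM in TIC and 0.133 FPKM in NTC, a log2 ratio of 1.56. Both were thus higher in TIC, though Plxna2 was a minor gene by level. Plxna3 had 5.98 FPKM in TIC and 8.07 FPKM in NTC, a log2 ratio of -0.38, within 2-fold. Plxna4 was not measured, with 0.0542 and 0.0873 FPKM. Among the plexins that bind Sema6a, Plxna2 and Plxna4 were therefore low in TIC, where Sema6a was at 121 FPKM.

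The class B plexins, receptors of class 4 semaphorins that carry RhoGEF proteins, did not share the TIC direction. Plxnb2, the highest receptor in NTC, had 51.7 FPKM in TIC and 67.1 FPKM in NTC, a log2 ratio of -0.37 (chromosome 15, 88985979 to 89011218). Plxnb1, the receptor of Sema4d, had 18.0 FPKM in TIC and 20.2 FPKM in NTC, a log2 ratio of -0.16 that turned to 0.0041 after centring on the median gene and to 0.0094 when the libraries were scaled to 1 sum. Both lay within 2-fold, so Plxnb1 was at a similar level in the library with more Sema4d and in that with less. Plxnb3, a receptor of Sema5a, had a listed 0 in TIC against 0.348 FPKM in NTC. Plxnb2 held 33.4% of the summed level of all 31 genes in NTC.

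Plxnd1, a receptor of Sema3e and Sema4a best known from blood vessels, had 2.14 FPKM in TIC and 0.0839 FPKM in NTC, a log2 ratio of 1.54 (chromosome 6, 115904829 to 115945023). The NTC level corresponds to about 12.5 reads by the same rough estimate. The description of Plxnd1, like those of Plxnb1, Plxna4, Sema3d and Sema6d, names several gene identifiers. The summed class B level was 69.6 FPKM in TIC and 87.7 FPKM in NTC, and the class A level was 69.3 and 26.8 FPKM. The balance between both plexin classes was thus near even in TIC and on the side of class B in NTC.

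Other genes of the pathway were followed in 4 lists with 67 genes found, of which 56 were measured. At least 2-fold higher in TIC were 20 of the 56 and at least 2-fold lower were 8, beside 14.6% and 13.8% of all measured genes. Their median log2 ratio was 0.21. These counts depended on the setting. With a pseudocount of 5 they were 13 and 4 of 56, beside 9.05% and 7.67% of all genes. At a mean of 5 FPKM or more they were 11 and 5 of 42, beside 12.3% and 13%. At 1 FPKM in both libraries they were 13 and 5 of 46, beside 8.84% and 11.1%. After centring, those lower were 5 of 56, beside 11.3%.

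Of the co-receptors and other receptors of semaphorins, 9 of 14 were measured, with 5 at least 2-fold higher in TIC, 4 at least 2-fold lower and none between. The shares over all measured genes were 14.6%, 13.8% and 71.6%. In 3 of the 9 the lower library was at or below 0.333 FPKM, so these had to be 2-fold different. Of the 5 with at least 1 FPKM in both libraries, 3 were higher and 2 lower, beside 8.84% and 11.1% of all such genes. Lower in TIC were 2 receptor tyrosine kinases that associate with class B plexins, while Mst1r, a relative of Met, was higher. Met, the hepatocyte growth factor receptor, had 4.33 FPKM in TIC and 48.6 FPKM in NTC, a log2 ratio of -3.22. Erbb2 had 15.9 FPKM in TIC and 32.8 FPKM in NTC, a log2 ratio of -1.0, at the 2-fold limit. Timd2, a binding partner of Sema4a, had 0.935 FPKM in TIC and 23.7 FPKM in NTC, a log2 ratio of -3.67. L1cam, a co-receptor of neuropilin 1 for Sema3a, had a listed 0 in TIC against 4.86 FPKM in NTC.

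Higher in TIC, besides Itgb1 and Itga1, were Ptk7, Mst1r and Chl1. Ptk7, a kinase-like receptor that associates with plexins, had 105 FPKM in TIC and 32.9 FPKM in NTC, a log2 ratio of 1.64. Mst1r, a relative of Met, had 2.40 FPKM in TIC against a listed 0 in NTC. Chl1, a relative of L1cam, had 5.58 FPKM in TIC and 1.32 FPKM in NTC. Cd72, the lymphocyte receptor of Sema4d, was not measured, with 0.122 and 0.0411 FPKM. Trem2 and Tyrobp, which join plexin A1 in bone and immune cells, were listed at 0 in both.

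The growth factors that share neuropilins were split. Of 8 genes found, 5 were measured, and a 2-fold difference toward TIC was reached by 2 and toward NTC by 1. The shares over all measured genes were 14.6% and 13.8%, and 5 genes are too few to set against them. Vegfa had 44.1 FPKM in TIC and 14.4 FPKM in NTC, a log2 ratio of 1.55. Pgf, placental growth factor, had 34.1 FPKM in TIC and 5.04 FPKM in NTC, a log2 ratio of 2.54. Both were thus higher in the library with more Nrp2 and Nrp1. Vegfb had 13.2 FPKM in TIC and 35.5 FPKM in NTC, a log2 ratio of -1.36. Within 2-fold were Vegfc, with 3.54 FPKM in TIC and 5.33 FPKM in NTC, and Figf, with 1.98 and 1.56 FPKM. The receptors Flt1 and Flt4 had at most 0.354 FPKM in either library.

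Of the 38 cytoplasmic effectors, 35 were measured, with 10 higher in TIC by 2-fold or more, 3 lower by as much and 22 between. Over all measured genes, 14.6% were higher and 13.8% lower by as much. The 22 are 62.9% of the measured effectors, where 71.6% of all measured genes lay within 2-fold. The CRMP genes, whose proteins relay semaphorin signals to microtubules, included the largest ratio. Dpysl3 had 106 FPKM in TIC and 0.147 FPKM in NTC, a log2 ratio of 6.54, and Dpysl5 had 7.0 and 0.529 FPKM. Fyn, a kinase that acts downstream of plexin A, had 8.67 FPKM in TIC and 0.562 FPKM in NTC, and the cofilin kinase Limk1 had 7.30 and 1.27 FPKM. Fes, another kinase bound by plexin A, went the other way with 0.255 FPKM in TIC and 8.67 FPKM in NTC. Farp2, a Rac activator released by plexin A, had 4.78 FPKM in TIC and 11.8 FPKM in NTC, and the Ras-like GTPase Mras had 1.47 and 4.35 FPKM. The RhoGEFs of class B plexins, Arhgef11 (22.9 and 19.8 FPKM) and Arhgef12 (55.1 and 43.0 FPKM), lay within 2-fold, as did the class B plexins.

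All 7 proteases that process semaphorins were measured, of which 3 were at least 2-fold higher in TIC, 0 lower by as much and 4 between. Over all measured genes, 14.6% were higher and 13.8% lower by as much. Pcsk5 was below 0.333 FPKM in NTC and so had to be 2-fold different. Of the 6 with at least 1 FPKM in both libraries, 2 were higher, beside 8.84% of all such genes. Furin, which cleaves class 3 semaphorins, had 47.0 FPKM in TIC and 46.6 FPKM in NTC. Its relative Pcsk6 had 135 FPKM in TIC and 12.2 FPKM in NTC, a log2 ratio of 3.37, and Pcsk5 had 2.71 and 0.281 FPKM. Mmp14, which can release Sema4d from the cell surface, had 214 FPKM in TIC and 28.9 FPKM in NTC, a log2 ratio of 2.85. Sema4d and Mmp14 thus differed in opposite directions.

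**Figure D4:**
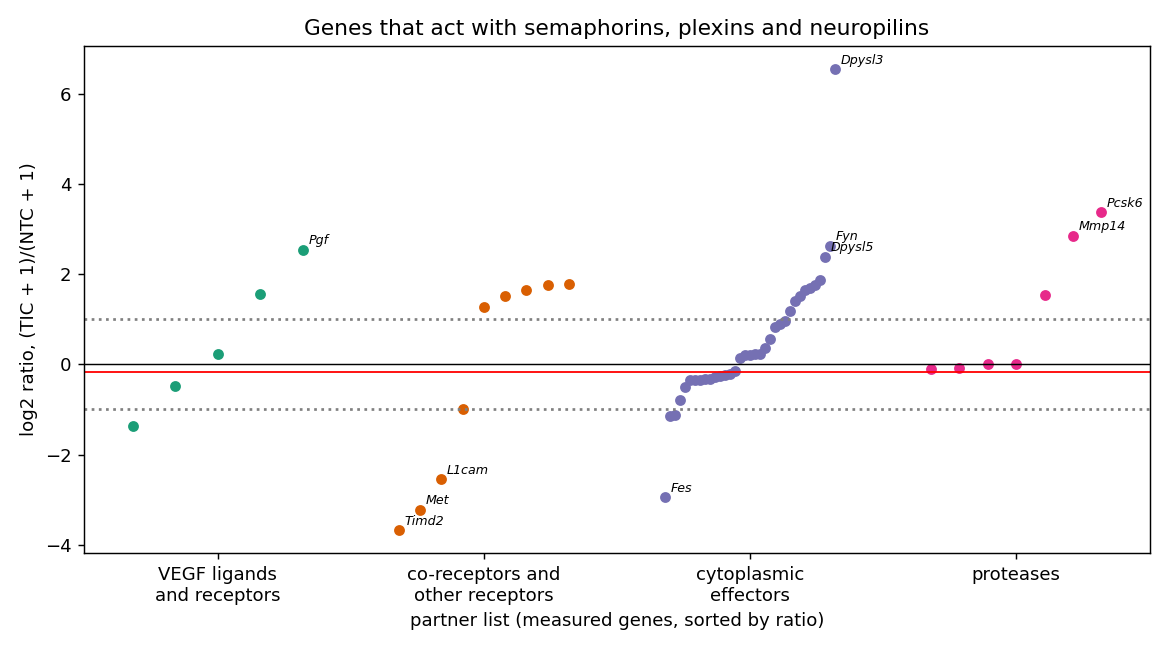
Log2 ratio of TIC to NTC for the 56 measured genes of the 4 partner lists, each dot a gene, with dotted lines at 2-fold and a red line at the median of all measured genes. Genes with a ratio of at least 4-fold either way are labelled, from Dpysl3 at 6.54 to Timd2 at -3.67.

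Markers of stromal and nerve cells also moved in part. Of 6 fibroblast markers, 5 were higher in TIC, with a summed level of 164 FPKM against 2.09 FPKM in NTC. Dcn made up 92.6% of that sum in TIC (152 against 1.51 FPKM), Pdgfra had 8.83 and 0.513 FPKM, and Pdgfrb had 2.44 and 0.0701 FPKM. Col3a1, a defining collagen of fibroblasts, had 0.221 FPKM in TIC against a listed 0 in NTC, Lum had 0.573 FPKM against a listed 0, and Fap was listed at 0 in both. Of the 6 nerve and Schwann cell markers, 4 had the higher level in TIC and 2 in NTC. The highest 2 in TIC were Sox10 and Tubb3. Sox10, which mammary epithelium also expresses, had 346 FPKM in TIC and 288 FPKM in NTC, and Tubb3 had 19.1 FPKM against a listed 0. Their part in the higher semaphorin levels of TIC was not tested.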

How the data were processed

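The authors deposited 1 file per library with an FPKM value for each gene. Per the submitters' processing notes, which give no roles or settings, the tools were CASAVA 1.8.2, TopHat 1.4.0, Cufflinks, Cuffdiff with mouse build mm9. Per the labels' protocols, little total RNA was amplified to cDNA before library construction, a step that can favour some transcripts over others. The use of strand is not given in the sources. The locus heading names a human build. Of 20006 symbols also in the NCBI gene table of GRCm38, 99.7% shared the chromosome but 4.40% had a start within 1 kb, so positions are printed as mm9, with 1 added to each start (197 starts lay 1 below that table's and 11 equalled it).

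Members were rows whose symbol matched the family names. Ratios were log2((TIC + 1)/(NTC + 1)) among genes whose mean reached 1 FPKM, computed with Python 3.11.15 and pandas 2.3.3 and tested on simulated data. FPKM are not counts, and with 1 library per group no model was fitted. Depth was estimated from short olfactory and vomeronasal receptor genes, as the median FPKM × kb within a fixed window, taken as 1 read. A read was thereby worth 0.0476 FPKM × kb in TIC (23 genes) and 0.0463 in NTC (39 genes), about 21.0 M and 21.6 M fragments. The window limits the range of this estimate. Reads for a gene used the longest coding GENCODE M21 transcript. RefSeq promoter entries matched 26 of 31 members. The members and the partner and marker lists were chosen with earlier results of these data known. Members whose mean reached 1 FPKM or that were listed at 0 were named, and in each partner list up to 4 genes of the largest ratio each way. Further genes were named after their values were seen: Sema3e, Sema6b, Plxna4, Plxnc1, Itgb1, Cd72, Trem2, Tyrobp, Flt1, Flt4, Vegfc, Figf, Furin, Arhgef11, Arhgef12, Cdh5, Pecam1, Col3a1, Lum, Fap and Pdgfrb. So were the markers Emcn, Esam, Tie1, Ptprc, Cd3e, Emr1 and Cd79a, and the genes beside Sema3b, Sema3f, Sema5a, Nrp1 and Nrp2. One marker of the nerve list is not reported here. Alternatives were other pseudocounts, filters and scalings.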

Additional observations from a re-analysis of the deposited data

How the results depend on the processing

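Sema4d was the single member at least 2-fold lower in TIC under each of the 8 alternatives run. The count of members at least 2-fold higher in TIC was 16 in the report. It was 16 of 21 with a pseudocount of 0.1 (16% of all genes) and with ratios centred on the median gene (16.3%). It was also 16 of 21 with libraries scaled to the same sum (16.4%), and 16 of 31 with no filter (8.5%). Without genes of several identifiers it was 14 of 18 (14.5%). It was 12 of 17 among genes whose mean reached 5 FPKM (12.3%) and 11 of 21 with a pseudocount of 5 (9.05%). It was 8 among the 13 members with at least 1 FPKM in both libraries (8.84%), where fewer members enter. With a pseudocount of 5, Nrp1, Plxna2, Plxnd1, Sema4c and Sema6c fell below 2-fold. The members' median log2 ratio of 1.67 was 2.80 with a pseudocount of 0.1, which shrinks low genes less. Centring and scaling moved the median of all measured genes from -0.16 to about 0, and Plxnb1 turned from -0.16 to 0.0041 when centred and to 0.0094 when scaled. Partner genes at least 2-fold higher in TIC, 20 in the report, numbered 13 of 56 with a pseudocount of 5, 11 of 42 at a mean of 5 FPKM or more and 13 of 46 at 1 FPKM in both. Those lower, 8 in the report, numbered 4 of 56 with a pseudocount of 5, 5 of 56 when centred, 5 of 42 at a mean of 5 FPKM or more and 5 of 46 at 1 FPKM in both. The requirement of 1 FPKM in both libraries and the omission of genes of several identifiers were chosen after seeing the data. No paired analysis was possible because each group has 1 library, and no library could be left out. Depth limits the low levels, such as that of Sema7a in NTC.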

Other observations

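Sema3b and Sema3f lie 72.3 kb apart on chromosome 9 of build mm9, and the genes around them did not all share their direction. The nearest genes on either side of Sema3b lay within 2-fold. Ifrd2 had 20.0 FPKM in TIC and 27.6 FPKM in NTC, and Gnai2, a G protein subunit, had 309.5 and 185 FPKM. Farther out, the hyaluronidase genes differed in direction. Hyal1 had 14.8 FPKM in TIC and 1.46 FPKM in NTC, a log2 ratio of 2.69, and Hyal2 had 46.1 and 16.1 FPKM, a log2 ratio of 1.47. Hyal3 had 1.09 FPKM in TIC and 3.46 FPKM in NTC, a log2 ratio of -1.09. Rbm5, an RNA-binding protein gene 30.0 kb from Sema3f, had 55.3 and 52.4 FPKM.

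The RefSeq promoter windows of the members differed in their CG pairs, counted over 250 bases before the start and taken at the start with most where a gene has several. The 12 measured members at least 2-fold higher in TIC that have an entry held a median of 17 CG pairs, from 9 in Sema6d to 39 in Sema3c. The 4 measured members within 2-fold held a median of 21.5, and Sema4d, lower in TIC, held 2. The 9 members that were not measured held a median of 7, and the median over 27025 genes was 6. AGGAAG on either strand was in 14 of the 26 members with an entry, where 32.3% of all genes held it. The 14 were 4 of the 12 higher in TIC, 2 of the 4 within 2-fold, Sema4d and 7 of the 9 not measured. CAGGTG was in 5 of the 26, where 19.4% of all genes held it. A gene with several starts was counted if any of its windows held the letters. Per window, AGGAAG was in 40.5% of the 37 member windows and 29.5% of all 32851. CAGGTG was in 13.5% and 17.2% of them. These are counts of letters, given with no test.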
